A study of Mus musculus with 8 samples.

Results

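Monocarboxylate transporters and their chaperones in brown adipose tissue (BAT) are described here as 10 genes of the 44674 gene identifiers measured. The genes were listed by name as a family, but with earlier results of these data known. The paper had already reported *Slc16a6* as increased in these samples. The list holds 8 transporters of the Slc16 family (*Slc16a1*, *Slc16a3*, *Slc16a6*, *Slc16a7*, *Slc16a9*, *Slc16a10*, *Slc16a12* and *Slc16a13*) and 2 chaperones (*Bsg* and *Emb*), and all 10 passed the filter on low counts. BAT of 4 control mice and 4 Ox1RΔSERT mice was studied by mRNA sequencing. Ox1RΔSERT mice (Ox1R fl/fl, Sert-Cre tg/wt) lack the orexin receptor Ox1R in cells with the serotonin transporter (SERT), and controls came from the same breeding, carried the same floxed Ox1R alleles and had no Cre. All 8 mice were males that received a high-fat diet (HFD) from week 4 to week 18 of age, were infused with insulin and glucose in a hyperinsulinemic-euglycemic clamp, and gave their tissue at its end, at 14 to 16 h. No group with Sert-Cre and unfloxed Ox1R was included among these samples, so that Cre itself and the loss of Ox1R cannot be told apart. The Slc6a4-Cre transgene acts wherever SERT is expressed, which in the study's own reporter mice went beyond serotonergic neurons. The further brain areas with reporter were the cingulate cortex and thalamic nuclei, where the paper detected no Ox1R in the labelled cells.

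Monocarboxylate transporters carry small organic acids across the plasma membrane, lactate and pyruvate and ketone bodies among them, together with a proton. BAT takes up glucose under insulin, burns fatty acids and glucose when active, and both releases and uses lactate. *Slc16a1* encodes MCT1, which moves lactate, pyruvate and ketone bodies in either direction, *Slc16a3* encodes MCT4, known for the export of lactate from glycolytic cells, and *Slc16a7* encodes MCT2, which has a high affinity for pyruvate and lactate. The proteins reach the membrane only with a chaperone of the immunoglobulin superfamily, which is basigin (*Bsg*) for MCT1 and MCT4 and embigin (*Emb*) for MCT2. The remaining members carry other cargo. *Slc16a6* transports ketone bodies, *Slc16a9* carnitine, *Slc16a10* aromatic amino acids and thyroid hormones, and *Slc16a12* creatine, while *Slc16a13* is less well characterised.

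The total of estimated counts per mouse was 35852708 to 50063339, and genes of the mitochondrial genome took 33.6% to 46.8% of it. A count of 3 corresponded to a normalized value (CPM after TMM scaling, which relates a count to the depth of its library) of 0.0592 to 0.0951, so that every member lay above this floor in every mouse. The first principal component held 53.6% of the variance and set Ox1RΔSERT mice 11708 and 11601 apart, at 77.0 and 59.3, from the other 6 mice at -44.3 to 7.13. *Hcrtr1*, the gene for Ox1R, had 0 to 5 counts per mouse in either group, which is too few to check the deletion in neurons. The summed level of 6 brown adipocyte markers was 5622 to 7272 TPM (transcript abundance corrected for length) over the 8 mice, and all of these markers were expressed. In bulk tissue, fewer cells of a type and less RNA per cell cannot be told apart.

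*Bsg* and *Slc16a1* were the abundant members of the family in BAT. Levels of different genes were compared as TPM, which corrects for transcript length. The median over 8 mice was 424 TPM for *Bsg*, 45.3 TPM for *Slc16a1* and 3.01 TPM for *Slc16a10*, and the ranges of these 3 genes did not overlap. Below them followed *Slc16a3* at a median of 1.85 TPM, *Emb* at 1.44 TPM and *Slc16a7* at 1.07 TPM. The medians of *Slc16a6*, *Slc16a9*, *Slc16a13* and *Slc16a12* were 0.442, 0.236, 0.188 and 0.134 TPM. From *Slc16a10* downward each neighbour in this order overlapped the next one in range, and the order of the medians held in only 3 of 8 mice for *Slc16a3* over *Emb* and in 2 of 8 for *Slc16a9* over *Slc16a13*.

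**Figure D1:**
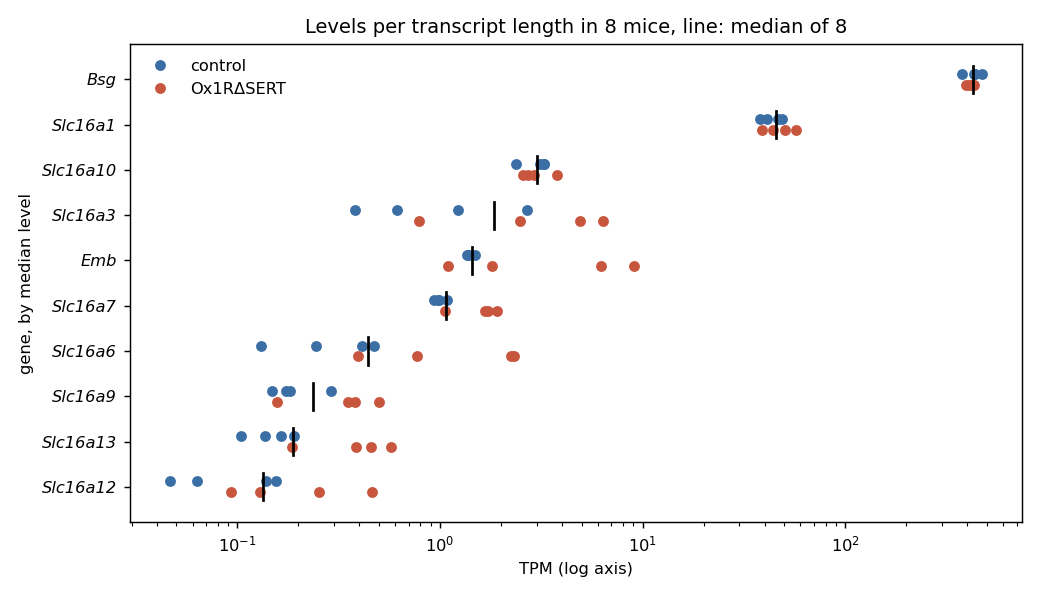
Levels of the 10 genes in TPM on a log axis, 1 point per mouse (blue, control; red, Ox1RΔSERT) and a line at the median of 8 mice. *Bsg* (median 424 TPM) and *Slc16a1* (45.3 TPM) stand clear of the others, and *Slc16a3*, *Slc16a6* and *Emb* spread most widely among Ox1RΔSERT mice.

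The 250 bases before the start of *Slc16a1* (chr3:104638414-104638663, plus strand) and of *Slc16a3* (chr11:120948817-120949066, plus strand) are shown because these encode the main lactate carriers. Sequences are from RefSeq on GRCm38.p6, 5′ to 3′. For *Slc16a3* the RefSeq start lies inside the gene as annotated by GENCODE, since another transcript begins further upstream. Capitals mark the motifs ACGTG and GCGTG (cores of hypoxia response elements, on either strand) and GGGCGG (GC box).
Slc16a1: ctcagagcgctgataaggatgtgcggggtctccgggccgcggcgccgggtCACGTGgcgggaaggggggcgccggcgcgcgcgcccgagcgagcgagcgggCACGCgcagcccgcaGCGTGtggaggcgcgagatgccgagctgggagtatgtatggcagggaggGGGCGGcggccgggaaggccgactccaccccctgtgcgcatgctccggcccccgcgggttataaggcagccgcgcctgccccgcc
Slc16a3: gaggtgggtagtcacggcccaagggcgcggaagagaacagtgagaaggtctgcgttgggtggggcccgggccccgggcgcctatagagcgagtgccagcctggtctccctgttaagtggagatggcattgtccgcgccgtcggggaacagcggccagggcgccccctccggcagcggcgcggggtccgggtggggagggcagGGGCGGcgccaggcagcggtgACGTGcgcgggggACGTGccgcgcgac
In *Slc16a3* the motif ACGTG occurred at 27 to 23 and at 14 to 10 bases before the start, on the plus strand. In *Slc16a1* it occurred within CACGTG, which reads the same on both strands, at 200 to 195 bases before the start, and GCGTG was found on each strand between 149 and 130 bases before it. Of all 32851 promoter windows of this length, 16.6% held ACGTG, 28.2% held GCGTG and 32.7% held GGGCGG. Promoter windows were found for 6 of the 10 members (*Slc16a1*, *Slc16a3*, *Slc16a9*, *Slc16a10*, *Slc16a12* and *Emb*). The starts used for *Slc16a9*, *Slc16a10* (by a few bases) and *Emb* also lay inside the annotated gene. Of these 6 windows, 3 held ACGTG, 3 held GCGTG and 5 held GGGCGG. The motif GAGGAAGT, a site of the macrophage factor PU.1, was in 0 of the 6 windows and in 2.44% of all, and CCAAT was in 1 of the 6 and in 33.8% of all. These are matches of letters and no evidence of binding.

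No member was called in the comparison of Ox1RΔSERT with control BAT by edgeR's quasi-likelihood test, in which 0% of 14489 tested genes passed an adjusted p of 0.05 with none below 0.316. Taking an unadjusted p under 0.05 instead, 3 members were higher in Ox1RΔSERT BAT (*Slc16a6*, *Slc16a13* and *Emb*), against 10.2% of all tested genes, and 2 were lower (*Slc16a10* and *Bsg*), against 4.96%. In both directions together this was 5 of 10 members, against 15.2% of all tested genes. DESeq2, the tool the study used, called *Slc16a6* alone among the members, against 1.75% of its 15119 tested genes. The study itself had reported *Slc16a6* as increased from these same samples. The log2 fold change was above 0 for 7 members and below 0 for 3, with a median of 0.55, against 50.4% above 0, 49.6% below 0 and a median of 0.002 over all tested genes. The groups did not overlap for 1 member, *Slc16a7*, which was higher in Ox1RΔSERT BAT, against 2.69% of all tested genes in that direction and 5.50% in either.

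*Slc16a1*, the carrier of lactate, pyruvate and ketone bodies (chr3:104638668-104658462), was within the control range in 2 of 4 Ox1RΔSERT mice. Its normalized value was 215, 197, 194 and 210 in control mice 10684, 11253, 11560 and 11563. In Ox1RΔSERT mice 11243, 11601, 11613 and 11708 it was 214, 165, 198 and 132. Mice 11243 and 11613 lay within the control range, and mice 11601 and 11708 lay below every control. The group means were 204 ± 10.1 and 177 ± 36.5 (SD), a fold of 0.867 with a 95% interval of 0.687 to 1.10, and the difference did not pass the test (edgeR adjusted p = 0.506). On TPM the direction turned, with means of 43.6 ± 4.92 and 47.5 ± 7.81 and a log2 difference of 0.11 on log2(TPM + 1), but the median of all genes was 0.23 on that scale and *Slc16a1* was 0.12 below it.

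*Slc16a3*, the lactate exporter (chr11:120948480-120960868), varied widely between mice within both groups. In control mice 10684, 11253, 11560 and 11563 its normalized value was 0.811, 5.87, 1.63 and 3.28. In Ox1RΔSERT mice 11243, 11601, 11613 and 11708 the values were 1.92, 7.65, 5.05 and 9.44. The groups overlapped, since control 11253 was above Ox1RΔSERT mice 11243 and 11613. The log2 fold change was 1.06 ± 0.63 (SE) and the 95% interval of the fold, 0.769 to 5.66, included no change (edgeR adjusted p = 0.427). Without control 11253 the log2 fold change was 1.63 (edgeR unadjusted p = 0.0295, not passing after adjustment), without control 10684 it was 0.75 and without 11708 it was 0.76. Markers of skeletal muscle, a tissue known to express *Slc16a3*, also differed between mice. Their summed level over 8 markers was 537 TPM in control 11253, 1057 TPM in 11708 and 107 TPM in 11601, and 1.24 to 16.9 TPM in the other 5 mice. Of these 5, mouse 11613 had 5.36 TPM with *Slc16a3* at 5.05, and control 11563 had 1.24 TPM with 3.28. The rest of the 5 had *Slc16a3* at 0.811 to 1.92. The part of these markers in the spread of *Slc16a3* was not tested.

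*Slc16a7*, the high-affinity pyruvate and lactate carrier (chr10:125219270-125389465), was the member whose groups did not overlap. Its normalized value was 2.67, 3.01, 2.57 and 3.09 in controls 10684, 11253, 11560 and 11563, and 3.36, 3.18, 3.95 and 3.31 in Ox1RΔSERT mice 11243, 11601, 11613 and 11708. All 4 Ox1RΔSERT mice were above all controls, by little, and mice 11601 and 11708 were not the highest. The log2 fold change was 0.28 ± 0.15 (SE), a fold of 1.22 with a 95% interval of 0.959 to 1.54 (edgeR adjusted p = 0.384). On TPM the groups overlapped, with Ox1RΔSERT mouse 11243 at 1.05 TPM and control 11563 at 1.08 TPM.

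*Slc16a6*, the ketone body transporter (chr11:109450855-109473598), had the largest log2 fold change among the members with all 8 mice in edgeR and was the one DESeq2 called. On log2(TPM + 1) its difference of 0.79 was below those of *Slc16a3* (0.97) and *Emb* (0.92). With the smaller pseudocount, on log2(TPM + 0.1), the difference of *Slc16a6* was above both, at 1.67 against 1.47 and 1.18. Its counts were 60, 38, 54 and 27 in controls 10684, 11253, 11560 and 11563 and 69, 234, 87 and 270 in Ox1RΔSERT mice 11243, 11601, 11613 and 11708. As normalized values these were 1.57, 1.20, 1.22 and 0.567 in controls against 1.51, 4.62, 1.95 and 5.55. Mice 11601, 11613 and 11708 lay above every control, whereas 11243 lay within the control range. The fold was 2.99 with a 95% interval of 1.41 to 6.36. It did not pass edgeR's test (unadjusted p = 0.00945, adjusted p = 0.316) but passed that of DESeq2 (adjusted p = 0.0476). The DESeq2 call was lost without any one of mice 11253, 11560, 11563, 11601 and 11708, with adjusted p-values of 0.0778, 0.247, 0.204, 0.453 and 0.387, and was made without 10684, 11243 or 11613.

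Exons of *Slc16a6* share 1052 bases, 21.5% of their length, with exons of *Amz2*, a putative peptidase gene on the opposite strand. The library kit kept the strand, but whether quantification used it is not given in the sources used here. *Amz2* had a normalized value of 27.9 ± 2.98 in controls and 25.9 ± 3.64 in Ox1RΔSERT BAT (SD, n = 4), with a log2 fold change of -0.11. *Arsg*, a sulfatase gene on the opposite strand that shares 48 exon bases with *Slc16a6*, was at 0.948 ± 0.161 and 1.58 ± 0.494, with 3 of 4 Ox1RΔSERT mice above every control (log2 fold change 0.74, edgeR unadjusted p = 0.0248). The ratio of *Slc16a6* to *Amz2* in TPM was 0.0106 to 0.0468 in controls and 0.0372, 0.173, 0.0507 and 0.160 in Ox1RΔSERT mice 11243, 11601, 11613 and 11708. Exon overlaps of *Slc16a9* and *Emb* with other genes involved genes of 0 to 1 and 1 to 8 counts per mouse.

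*Bsg*, the chaperone of MCT1 and MCT4 (chr10:79704491-79711969), was lower in most Ox1RΔSERT mice when scaled to counts. Its normalized value was 672, 662, 699 and 735 in controls 10684, 11253, 11560 and 11563, and 673, 481, 560 and 456 in Ox1RΔSERT mice 11243, 11601, 11613 and 11708. The mice 11601, 11613 and 11708 lay below every control and 11243 lay among them. The fold was 0.784 with a 95% interval of 0.633 to 0.972 and did not pass the test after adjustment (edgeR unadjusted p = 0.0306, adjusted p = 0.316). In TPM the means were 428 ± 40.1 and 414 ± 15.0 and the log2 difference was -0.05 on log2(TPM + 1), where the median of all genes was 0.23. DESeq2 called *Bsg* once 11243 was left out (adjusted p = 0.00413).

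*Emb*, the chaperone of MCT2 (chr13:117208536-117274415), was high in mice 11601 and 11708 and at the control level in the other Ox1RΔSERT mice. In controls 10684, 11253, 11560 and 11563 its normalized value was 3.30, 4.22, 3.52 and 3.28. In Ox1RΔSERT mice 11243, 11601, 11613 and 11708 it was 2.86, 16.0, 3.43 and 11.3. Mouse 11243 was thus below every control. The fold was 2.35 with a 95% interval of 1.04 to 5.31 (edgeR unadjusted p = 0.0423, adjusted p = 0.325), and the SD was 0.440 in controls and 6.37 in Ox1RΔSERT BAT. DESeq2 gave an adjusted p of 0.156 for all 8 mice, and of 0.0108 and 0.0336 without 11243 and without 11613.

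*Slc16a10*, the carrier of aromatic amino acids and thyroid hormones (chr10:40033532-40142258), was lower in Ox1RΔSERT BAT without following mice 11601 and 11708. Its normalized value was 16.9, 14.9, 18.7 and 17.8 in controls 10684, 11253, 11560 and 11563 and 15.1, 11.6, 11.9 and 15.4 in Ox1RΔSERT mice 11243, 11601, 11613 and 11708. Only control 11253 lay within the Ox1RΔSERT range. The fold was 0.789 with a 95% interval of 0.642 to 0.970 (edgeR unadjusted p = 0.0288, adjusted p = 0.316), whereas in TPM both group means were 2.99.

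The 3 members of lowest level were measured with few counts. *Slc16a13* (chr11:70216789-70221064), with 11 to 58 counts per mouse, had a normalized value of 0.288, 0.507, 0.542 and 0.378 in controls 10684, 11253, 11560 and 11563 and 0.546, 1.14, 0.471 and 0.926 in Ox1RΔSERT mice 11243, 11601, 11613 and 11708. Mice 11601 and 11708 were clearly above the controls, 11243 was level with the highest control and 11613 lay within the control range. The log2 fold change was 0.85 ± 0.36 (SE) and did not pass after adjustment (edgeR unadjusted p = 0.0432, adjusted p = 0.325). *Slc16a12*, the creatine transporter (chr19:34668403-34747289), had 9 to 70 counts per mouse and normalized values of 0.203 to 0.666 in controls and 0.415 to 1.44 in Ox1RΔSERT BAT, with overlap between the groups and a log2 fold change of 0.78 ± 0.54 (SE). *Slc16a9*, the carnitine carrier (chr10:70245100-70285968), had 21 to 68 counts and normalized values of 0.666 to 1.13 against 0.655 to 1.34, with a log2 fold change of 0.31 ± 0.29 (SE). Neither difference passed the test (edgeR adjusted p = 0.485 and 0.611).

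**Figure D2:**
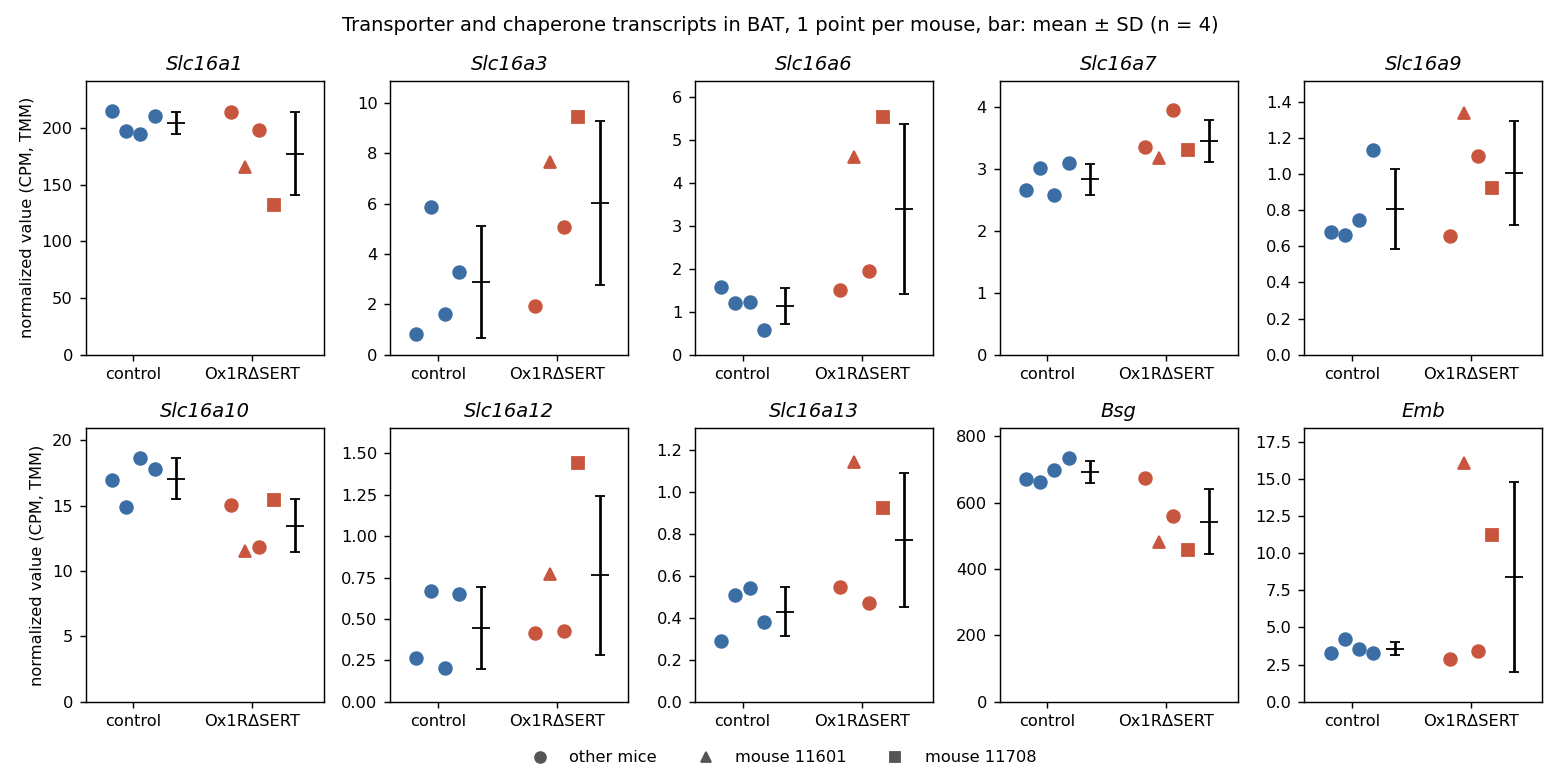
Normalized value (CPM after TMM scaling, axis from 0) of each gene in each mouse, with the mean ± SD of 4 mice per group. Mice 11601 (triangle) and 11708 (square) are the 2 highest of 8 for *Slc16a3*, *Slc16a6*, *Slc16a12*, *Slc16a13* and *Emb* and the 2 lowest for *Slc16a1* and *Bsg*, and *Slc16a7* is the one gene without overlap.

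Mice 11601 and 11708 were the 2 highest of the 8 mice for 5 members, against 20.1% of all tested genes, and the 2 lowest for 2 members, against 15.3%. Markers of some other cell types moved with these mice. All 8 macrophage and leukocyte markers (*Ptprc*, *Adgre1*, *Cd68*, *Csf1r*, *Mrc1*, *Itgam*, *Lyz2* and *Cd14*) were higher in Ox1RΔSERT BAT at an unadjusted p under 0.05 and highest in 11601 and 11708. Their summed level was 52.3 to 107 TPM in controls, 81.8 and 110 TPM in 11243 and 11613, and 646 and 472 TPM in 11601 and 11708. The 4 fibroblast markers likewise summed to 56.1 to 98.4 TPM in controls, 77.1 and 135 TPM in 11243 and 11613, and 659 and 331 TPM in 11601 and 11708. The 3 liver markers reached 452 TPM in 11708 and 34.6 TPM in 11601, against 1.98 to 17.0 TPM in the other 6 mice. Of the endothelial, red blood cell, Schwann cell and skeletal muscle markers, 0 had these mice as the 2 highest. In edgeR 0 of them were higher at an unadjusted p under 0.05. No marker of these lists was at 0 in all 8 mice. Adipocyte markers moved the other way on the normalized scale used for the members. All 5 adipocyte markers and all 6 brown adipocyte markers had log2 fold changes below 0, with medians of -0.21 and -0.35, and mice 11601 and 11708 were the 2 lowest of 8 for 5 of 5 adipocyte and 4 of 6 brown adipocyte markers, as for *Slc16a1* and *Bsg*. At an unadjusted p under 0.05, 1 marker of each of these lists was lower, among them *Ucp1*, the uncoupling protein of BAT (log2 fold change -0.54, edgeR unadjusted p = 0.0169). In TPM, brown adipocyte markers summed to 6054 and 5622 in 11601 and 11708 and to 6477 to 7272 in the other 6 mice, whereas the summed adipocyte markers of 11601 and 11708, 9263 and 7810 TPM, lay within the range of 7722 to 9987 TPM of the others. The adipocyte sum was mostly *Fabp4*, with a median of 7304 TPM over 8 mice against 102 to 395 TPM for the other markers. Likewise *Lyz2* led the macrophage and leukocyte sum, with a median of 64.6 TPM against 1.18 to 7.50 TPM. The part of any of these cell types in the values of *Slc16a6*, *Slc16a13*, *Emb*, *Slc16a1* and *Bsg* was not tested.

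**Figure D3:**
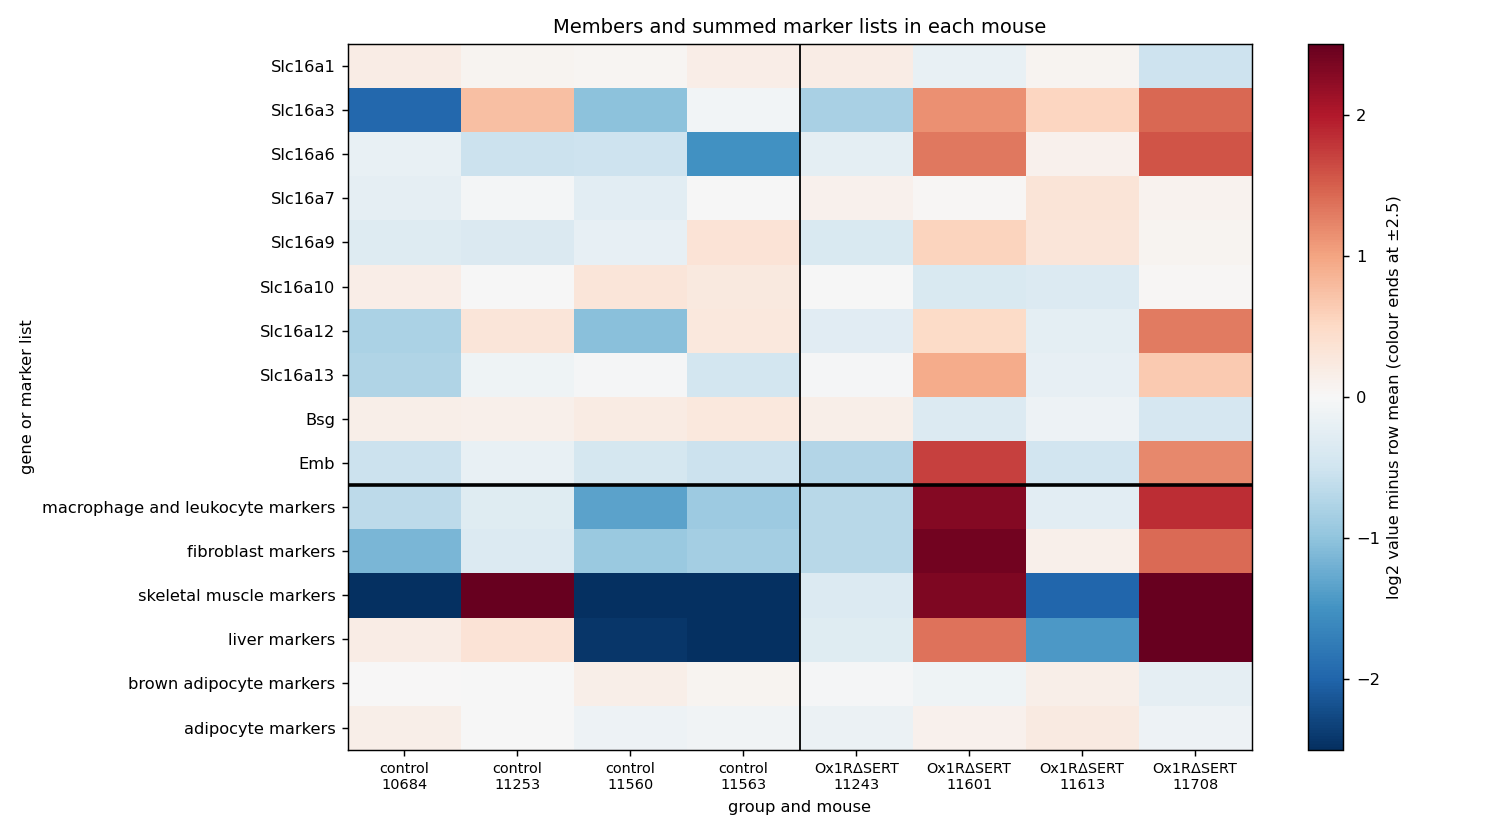
Difference of each gene (log2 normalized value with a pseudocount of 0.1) and of each summed marker list (log2 TPM) from its mean over 8 mice, with colours that end at ±2.5. Mice 11601 and 11708 are red for *Emb* and *Slc16a6* and for macrophage and fibroblast markers, whereas control 11253 shares high skeletal muscle markers and *Slc16a3* with 11708. Mouse 11613 has *Slc16a3* near control 11253 (normalized value 5.05 against 5.87) with muscle markers of only 5.36 TPM.

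Without 11601 and 11708 the differences of most members were smaller. The pair was chosen with these data known, and leaving out the most extreme mice of a group makes its difference smaller in any case. Only mice 11243 and 11613 were then left in the Ox1RΔSERT group. The log2 fold change of *Slc16a6* was 0.61 in place of 1.58 (edgeR unadjusted p = 0.155), that of *Slc16a13* 0.25 in place of 0.85 and that of *Slc16a3* 0.29 in place of 1.06. For *Emb* the direction turned, to -0.18, as for *Slc16a12*, to -0.07, and *Slc16a1*, to 0.02. The value of *Bsg* was -0.16 in place of -0.35. *Slc16a10* stayed at -0.34 and *Slc16a7* was at 0.37 in place of 0.28. At an unadjusted p under 0.05 there were then 0 of 10 members and 2.85% of all tested genes in edgeR, and 0 members in DESeq2. With 1 mouse left out at a time, the log2 fold change of *Slc16a6* ranged from 1.24 to 1.80, that of *Emb* from 0.71 (without 11601) to 1.49, and that of *Bsg* from -0.49 to -0.28. For *Slc16a12* the range was 0.28 (without 11708) to 1.02 (without 11563), for *Slc16a9* 0.14 to 0.51, and for *Slc16a1* -0.33 to -0.09.

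**Figure D4:**
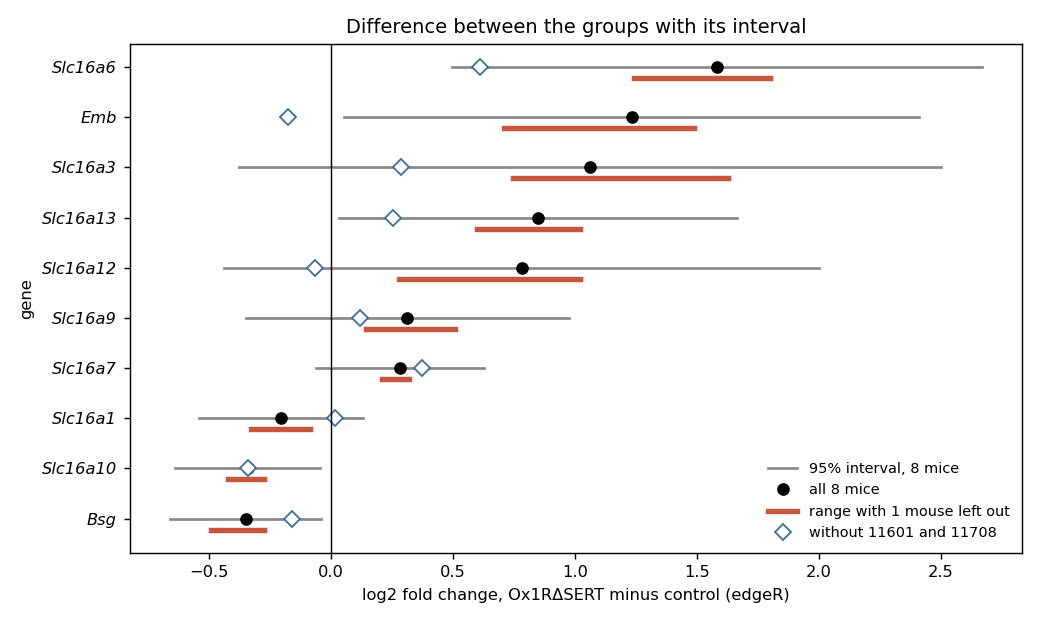
Log2 fold change (Ox1RΔSERT minus control, edgeR) of the 10 genes, with the point and grey 95% interval for all 8 mice, the red range over fits with 1 mouse left out and a blue diamond for the fit without 11601 and 11708. The diamond moves to 0.61 for *Slc16a6* and -0.18 for *Emb* and stays at -0.34 for *Slc16a10*.

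*Slc16a1* made up most of the transporter mRNA in every mouse. It took 87.8% ± 2.18 (SD, n = 4) of the summed TPM of the 8 transporters in controls and 81.8% ± 8.02 in Ox1RΔSERT BAT, with 90.2% at the highest and 71.5% at the lowest, in mouse 11708. The share of *Slc16a3* was 2.59% ± 2.39 in controls and 6.21% ± 4.48 in Ox1RΔSERT BAT, and that of *Slc16a6* 0.639% ± 0.304 and 2.43% ± 1.71. With CPM per kilobase of exon in place of TPM, the share of *Slc16a3* was 1.10% and 2.74%, still the larger in Ox1RΔSERT BAT, and that of *Slc16a6* 0.469% and 1.70%. The shares of *Slc16a10*, 6.04% ± 0.695 and 5.21% ± 1.23, overlapped widely. In TPM, *Bsg* exceeded *Emb* by 251 to 348 times in controls, by 374 and 231 times in Ox1RΔSERT mice 11243 and 11613 and by 47.4 and 63.9 times in 11601 and 11708. The ratio of *Slc16a1* to *Slc16a3* was 14.1 to 128 in controls and 6.07 to 55.7 in Ox1RΔSERT BAT.

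**Figure D5:**
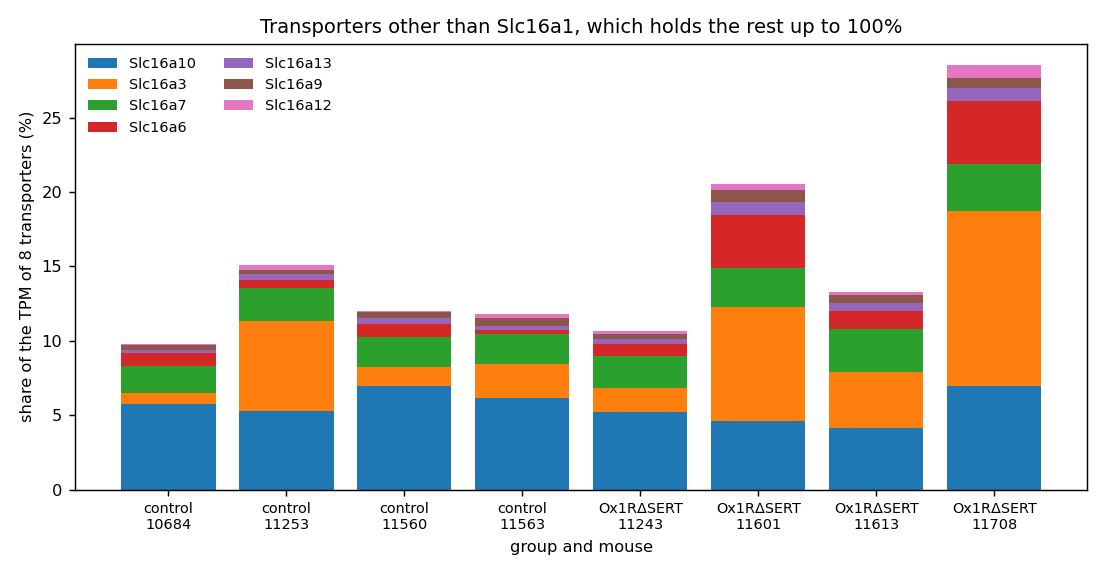
Share of the summed TPM of 8 transporters held by the 7 transporters other than *Slc16a1*, stacked for each mouse, in percent. *Slc16a1* holds the rest, from 71.5% in Ox1RΔSERT mouse 11708 to 90.2% in control 10684, and the shares of *Slc16a3* and *Slc16a6* are largest in 11708.

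The transcripts behind a gene's value can also differ between mice. The ratio of estimated count to TPM, relative to that of *Slc16a1*, which has 1 annotated transcript, follows the mean effective length of a gene's transcripts. It was steady for *Emb* (0.536 to 0.544) and *Bsg* (0.339 to 0.383) and wider for *Slc16a6* (0.627 to 0.965) and *Slc16a3* (0.419 to 0.595). For *Slc16a13* it was 0.353 in Ox1RΔSERT mouse 11613 and 0.596 to 0.624 in the other 7. These ratios rest on few counts for *Slc16a6* and *Slc16a13*.

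Genes that handle the same substrates were looked at in lists, whose counts read against the 10.2% of all tested genes that were higher and the 4.96% that were lower at an unadjusted p under 0.05. Among 18 tested genes of lactate and pyruvate metabolism, 0 were higher and 2 lower at an unadjusted p under 0.05 in edgeR, namely *Pdp2*, a phosphatase that activates pyruvate dehydrogenase (58.7 ± 5.43 against 41.5 ± 11.6, log2 fold change -0.50), and *Mpc2*, a subunit of the mitochondrial pyruvate carrier (326 ± 20.5 against 253 ± 53.3, log2 fold change -0.37). The median log2 fold change of that list was -0.09. In TPM the means were closer, at 12.9 ± 1.79 and 11.3 ± 2.89 for *Pdp2* and 455 ± 45.3 and 446 ± 22.6 for *Mpc2*. Among 7 genes of ketone body metabolism, 1 was lower, *Oxct1*, the enzyme that activates acetoacetate for use. *Oxct1* had a normalized value of 462 ± 52.0 in controls and 325 ± 59.9 in Ox1RΔSERT BAT without overlap (log2 fold change -0.51, edgeR unadjusted p = 0.00835, adjusted p = 0.316). Groups without overlap in this direction were found for 2.81% of all tested genes. In TPM the means of *Oxct1* were 109 ± 15.3 and 96.6 ± 17.2. Of 9 tested hypoxia-inducible genes 1 was higher, the vasodilator gene *Adm*, at 3.07 ± 1.07 against 5.96 ± 1.67 without overlap (log2 fold change 0.96). Mice 11601 and 11708 were the 2 lowest of 8 for *Pdp2*, *Mpc2* and *Oxct1*, against 15.3% of all tested genes. They were the 2 highest for *Adm*, against 20.1%.

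Among 13 genes for the use of carnitine, creatine and taurine, 3 were higher at an unadjusted p under 0.05 in edgeR and 1 was lower. *Slc6a8*, the main creatine transporter, was higher with a log2 fold change of 0.36, *Gamt*, which makes creatine, with 0.58, and *Cpt1a*, which passes fatty acids to carnitine, with 0.67. Mice 11601 and 11708 were the 2 highest of 8 for *Gamt* and *Cpt1a* but not for *Slc6a8*. The brain-type creatine kinase *Ckb*, which serves creatine cycling in BAT, was lower without overlap of the groups (31.5 ± 6.60 against 21.7 ± 3.42, log2 fold change -0.54). In TPM its means were 19.4 ± 4.33 and 16.5 ± 3.24. Of 8 genes for transport of aromatic amino acids and thyroid hormone action, *Slc7a5*, an amino acid exchanger, was higher (log2 fold change 1.52). *Dio2*, which activates thyroid hormone in BAT, and *Slc7a8*, a further amino acid exchanger, were lower in the same list, by log2 fold changes of -1.22 and -0.80. Mice 11601 and 11708 were the 2 highest of 8 for *Slc7a5*, but not the 2 lowest for *Ckb*, *Dio2* or *Slc7a8*. *Nptn*, the closest relative of basigin among the genes looked at, had a normalized value of 68.6 ± 7.27 and 68.3 ± 6.45. In TPM it was at 50.5 ± 9.54 in controls and 75.4 ± 23.6 in Ox1RΔSERT BAT. Its ratio of estimated count to TPM ranged from 37.0 to 91.4 between mice. None of the genes in these lists passed an adjusted p of 0.05 in edgeR or DESeq2.

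Genes with the most similar pattern were sought for the 5 members whose log2 values had an SD of at least 0.5 over the 8 mice. Likeness was the mean absolute difference between centred log2 values over the 8 mice. For *Emb* the nearest genes were *A530064D06Rik* (0.0853), *Pla2g4a* (0.116) and *Igsf3* (0.126), against a median of 0.745 over all genes. For *Slc16a6* they were *Galns* (0.175), *Tlr6* (0.196) and *Galnt17* (0.207), against 0.779. For *Slc16a3* the nearest, *Matk* at 0.320, was farther off, against 0.986. The nearest to *Slc16a13* was *Rnd3* (0.106, against 0.457) and the nearest to *Slc16a12* was *Lrp4* (0.194, against 0.608).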

How the data were processed

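BAT of 8 male mice was sequenced as poly-A selected, stranded mRNA libraries. The authors quantified genes with Salmon 0.14.1; STAR, DESeq2 1.26.0 and GRCm38.p6 are also named in the submitters' processing notes. The annotation release, the use of strand and filters on reads are not given in the sources used here. The authors deposited estimated counts per gene, not normalized, and TPM values, in which the authors had corrected for transcript length and depth.

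Estimated counts were rounded to whole numbers and tested with edgeR 4.0.16 in R 4.3.3 (filterByExpr, TMM, glmQLFit and glmQLFTest), two-sided, on 4 against 4 mice with no covariate, with Benjamini-Hochberg adjustment over 14489 genes. Standard errors were derived from the F statistic. Intervals are at 95%. Per-mouse log2 values used a pseudocount of 0.1. Symbols (found for 44118 of 44674 identifiers) and positions are from GENCODE M21 on GRCm38, and promoters from RefSeq. Alternatives were DESeq2 1.42.0, other scalings, filters and dispersions, a transcript length offset, limma 3.58.1 on log2(TPM + 1) and log2(TPM + 0.1), and each mouse or both of 11601 and 11708 left out; DESeq2 with mice left out was added after the data had been seen. The scripts were tested on simulated counts. Replicates are separate mice, and no 2 libraries were alike within sampling noise. Named genes were the 10 members, list genes with an unadjusted p under 0.05 in edgeR (at most 6 per list) and *Amz2*, with *Arsg* and *Ucp1* added after their values were seen; *Nptn* was named, after its values were seen, as the tested gene of its list. The list of other Slc16 family genes is not reported here. The members, lists and the pair of mice left out were chosen with earlier results of these data known.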

Additional observations from a re-analysis of the deposited data

Results flagged for a closer look

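The normalized value of *Slc16a9* in control mouse 11563 was 1.13, with the nearest other control at 0.745, and its gap was 0.831 of the range of the 4 controls, just above the critical value of Dixon's test at 95%. This was the one such value among 20 groups looked at (10 genes in 2 groups), and chance gives about 1 in 20. The gene had 21 to 68 counts per mouse.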

How the results depend on the processing

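Of the log2 fold changes of the 10 members, 8 of 289 alternatives over 29 settings had the other sign. *Slc16a1* turned to 0.11 on log2(TPM + 1) and 0.12 on log2(TPM + 0.1), and to 0.017 without both 11601 and 11708 in edgeR and in DESeq2. Without these mice *Slc16a12* turned to -0.067 in edgeR and -0.071 in DESeq2, and *Emb* to -0.18 in both. The median of all genes shifted to 0.22 with library size alone, 0.23 on log2(TPM + 1), 0.32 on log2(TPM + 0.1) and 0.10 with the length offset. Relative to that median *Slc16a1* stayed below 0 on log2(TPM + 1) and log2(TPM + 0.1), at -0.12 and -0.20. *Slc16a9* and *Slc16a12* were at -0.066 and -0.074 on log2(TPM + 1) but at 0.22 and 0.33 on log2(TPM + 0.1). edgeR and limma called 0 genes in every setting. DESeq2 called 265 genes with all mice, 17 without 11601 or 11560, 19 without 11708, 49 without 11563, 247 without 11253, 373 without 10684, 936 without 11613, 1516 without 11243, and 8 without both 11601 and 11708. In place of 5 members at an unadjusted p under 0.05 there were 3 with the length offset (all genes 10.1%, against 15.2%), 3 on each TPM scale (21.0% and 22.1%), and 0 without both mice in edgeR (2.85%) and in DESeq2 (2.19%). With 1 mouse left out there were 1 (without 11563 or 11601; all genes 9.09% and 7.58%) to 5 (without 11243; 22.4%) in edgeR, and 1 (without 11601), 2 (without 11560 or 11563), 3 (without 11708) and up to 6 (without 11243; all genes 22.7%) in DESeq2. As CPM per kilobase of exon, the share of *Slc16a7* was 0.480% in controls and 0.661% in Ox1RΔSERT BAT, against 2.01% and 2.71% in TPM. That of *Slc16a10* was 4.65% and 4.20%, against 6.04% and 5.21% in TPM. In controls the share of *Slc16a6* was below that of *Slc16a7* in TPM (0.639%) and as CPM per kilobase of exon (0.469%). In Ox1RΔSERT BAT the order of these genes depended on the length used. There *Slc16a6* was below *Slc16a7* in TPM, at 2.43%, and above it as CPM per kilobase of exon, at 1.70%. The cause of these shifts was not tested, and fits with mice left out hold fewer samples. No paired analysis was possible because the labels give the groups no shared replicate numbers. Counts of 9 to 70 per mouse limit the precision for *Slc16a9*, *Slc16a12* and *Slc16a13*.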
